A study of Homo sapiens with 33 samples.

Results

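The MAPK dual-specificity phosphatases are enzymes that switch off mitogen-activated protein kinases (MAPKs). The 10 genes described here are DUSP1, DUSP2, DUSP4, DUSP5, DUSP6, DUSP7, DUSP8, DUSP10, DUSP14 and DUSP16. They were taken by symbol from 62446 gene rows in each of 33 RNA sequencing libraries. The choice was made with earlier results of these data known. A MAPK is active when a threonine and a tyrosine in its activation loop both carry phosphate, and a dual-specificity phosphatase removes both. Many of these genes are themselves transcribed in response to MAPK signalling, so that their products form a negative feedback loop, and the family members differ in where they sit in the cell and which kinase they prefer. In lymphoid leukaemia the ERK branch of the pathway is known for supporting survival, and DUSP1 is known in many cell types as a gene that glucocorticoids induce.

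The study asked how glucocorticoid and canonical Wnt signalling affect each other in acute lymphoblastic leukaemia (ALL), a cancer treated with glucocorticoids. RNA was sequenced in 3 libraries for each of 11 groups of established cell lines. Nalm6, a B-cell precursor ALL line, was left untreated or received 0.5 µM CHIR-99021, a GSK3 inhibitor used to activate Wnt signalling, or 5 µM of the glucocorticoid prednisolone. Another Nalm6 pair of groups was an untreated set and a set given 100 nM dexamethasone, a more potent glucocorticoid. A CRISPR/Cas9-edited Nalm6 line made by targeting TLE1, which encodes a transcriptional co-repressor, labelled TLE1 KO, was grown without drug, with 5 µM prednisolone or with 100 nM dexamethasone; no untreated knockout group is labelled as belonging with the dexamethasone libraries. CEM, a T-cell ALL line, was grown without drug, with 2 µM CHIR-99021 or with 10 µM prednisolone. Every treatment lasted 24 h. Nalm6 and the knockout were kept in medium with charcoal-stripped serum, which is serum depleted of steroids; the labels do not say how CEM was kept, whether the knockout is 1 clone, or whether untreated cells received a vehicle. The treatment note in the labels swaps prednisolone and CHIR-99021 between the parental and knockout lines, and the sample titles and the series text were followed instead. Independent experiments are stated for the parental CHIR-99021 and the knockout prednisolone parts; for the other groups p-values measure the spread between libraries, which may be technical.

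Library depth ran from 25292579 to 61930057 gene counts. A gene at 0 therefore has an upper limit of 3 counts, which is 0.119 CPM (counts scaled to a common library total of gene counts) in the shallowest library and 0.0484 CPM in the deepest; this covers counting error only. The TLE1 transcript, the targeted gene, was still present at 24.0 to 25.4 CPM in the untreated knockout against 30.2 to 34.0 CPM in untreated Nalm6 (log2 fold change -0.36, edgeR adjusted p = 0.002), and it was higher under both glucocorticoids in both lines, at 113 and 131 CPM in Nalm6 and 62.5 and 57.3 CPM in the knockout. Summed B-cell precursor markers stood at 2252 to 3316 CPM in Nalm6, 2533 to 3156 CPM in the knockout and 171 to 245 CPM in CEM, and summed T-cell markers at 0 to 1.01, 0 to 0.0321 and 1259 to 1360 CPM. Myeloid markers summed to at most 7.12 CPM in any library. The spread of every replicate pair exceeded Poisson counting error: the chi-square divided by its degrees of freedom lay between 1.77 and 39.0. Replicate 3 of the Nalm6 CHIR-99021 group stood farthest from its partners, at 37.5 and 39.0, and replicate 3 of the untreated knockout was next, at 26.1 and 29.3. These are bulk samples, so fewer expressing cells and less RNA per cell cannot be told apart.

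Promoter sequences are shown for the 3 genes on which the glucocorticoid comparisons turn: DUSP1, whose product is nuclear, DUSP6, whose product holds ERK in the cytoplasm, and DUSP10, whose product prefers the stress kinases p38 and JNK. Each is the 250 bases before the RefSeq gene start in GRCh38.p14, 5′ to 3′ on the gene's own strand, and all 3 genes lie on the minus strand. DUSP1 is at chr5:172771196-172771445, DUSP6 at chr12:89352502-89352751 and the first of 2 listed DUSP10 starts at chr1:221742090-221742339. Capitals mark matches to the cyclic AMP response element (TGACGTCA), its core (TGACG, either strand) and the TATA box (TATAAA).
DUSP1: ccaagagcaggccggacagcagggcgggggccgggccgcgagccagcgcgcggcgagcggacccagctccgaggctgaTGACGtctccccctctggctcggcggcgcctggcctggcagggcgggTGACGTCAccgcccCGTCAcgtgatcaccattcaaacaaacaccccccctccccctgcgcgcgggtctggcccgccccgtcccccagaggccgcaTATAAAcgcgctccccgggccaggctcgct
DUSP6: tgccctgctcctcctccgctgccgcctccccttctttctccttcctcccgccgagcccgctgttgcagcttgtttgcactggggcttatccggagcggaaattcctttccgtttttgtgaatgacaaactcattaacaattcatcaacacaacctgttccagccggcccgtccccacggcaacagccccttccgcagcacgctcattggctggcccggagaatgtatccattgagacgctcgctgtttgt
DUSP10: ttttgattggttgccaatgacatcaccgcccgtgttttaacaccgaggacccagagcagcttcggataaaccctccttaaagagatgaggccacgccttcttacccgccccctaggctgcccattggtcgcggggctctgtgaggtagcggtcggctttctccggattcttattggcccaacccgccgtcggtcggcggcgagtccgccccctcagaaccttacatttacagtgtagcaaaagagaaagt

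The 3 windows differed in base composition and in these letters. DUSP1 was 74.4% G and C, above the median of 58.0% over 35116 RefSeq promoters, while DUSP6 was 57.2% and this DUSP10 window 56.4%. Of the 8 members with a promoter in the table, DUSP1 and DUSP8 held the full cyclic AMP response element, a sequence bound by CREB, which was in 1.65% of all promoters; its core, which overlaps it, was in the same 2 members and in 21.2% of promoters. The TATA box was in DUSP1 alone among the 8 members and in 10.7% of promoters. The GC box (GGGCGG, either strand) was in 7 of the 8, all but DUSP6, and in 42.6% of promoters. The letters of a glucocorticoid response element (GNACANNNTGTNC), of an AP-1 site (TGANTCA) and of an ETS site (CCGGAAGT), each read on both strands, were in none of the 8, and in 0.327%, 6.57% and 3.42% of promoters. A match is a description of letters in this window only. DUSP4 and DUSP5 had no entry.

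Levels of different genes were compared per kilobase of exon (CPM per kb). The length was that of all annotated exons of a gene merged, not of the transcripts expressed, so ranks between genes depend on it. It was 2019 bases for DUSP1 and 4632 bases for DUSP6. In untreated Nalm6, DUSP1 was the most abundant member at 65.7 CPM per kb, 55.3% of the summed level of the 10 genes, followed by DUSP6 at 23.5 CPM per kb (19.8%). DUSP14, an atypical small phosphatase without a kinase-docking domain, stood at 9.77 CPM per kb, DUSP7, a cytoplasmic ERK phosphatase, at 7.35, and DUSP2, an inducible nuclear phosphatase of immune cells, at 7.09. DUSP16, a JNK-preferring phosphatase, was at 2.98 CPM per kb, DUSP10 at 1.09, DUSP5, a nuclear ERK phosphatase, at 0.963, and DUSP4, a nuclear phosphatase related to DUSP1, at 0.371. DUSP8, a JNK and p38 phosphatase known from brain and heart, was essentially absent from the Nalm6 lines: 5 of 24 libraries had any count, with at most 2 counts. The order in CEM was different, with DUSP6 first at 21.6 CPM per kb (36.3% of the sum), DUSP2 at 12.5 (21.0%) and DUSP1 only sixth at 3.46 (5.81%). The summed level of the family was 119 ± 2.17 CPM per kb (SD, n = 3) in untreated Nalm6, 91.2 ± 1.37 in the untreated knockout and 59.6 ± 0.390 in untreated CEM.

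**Figure D1:**
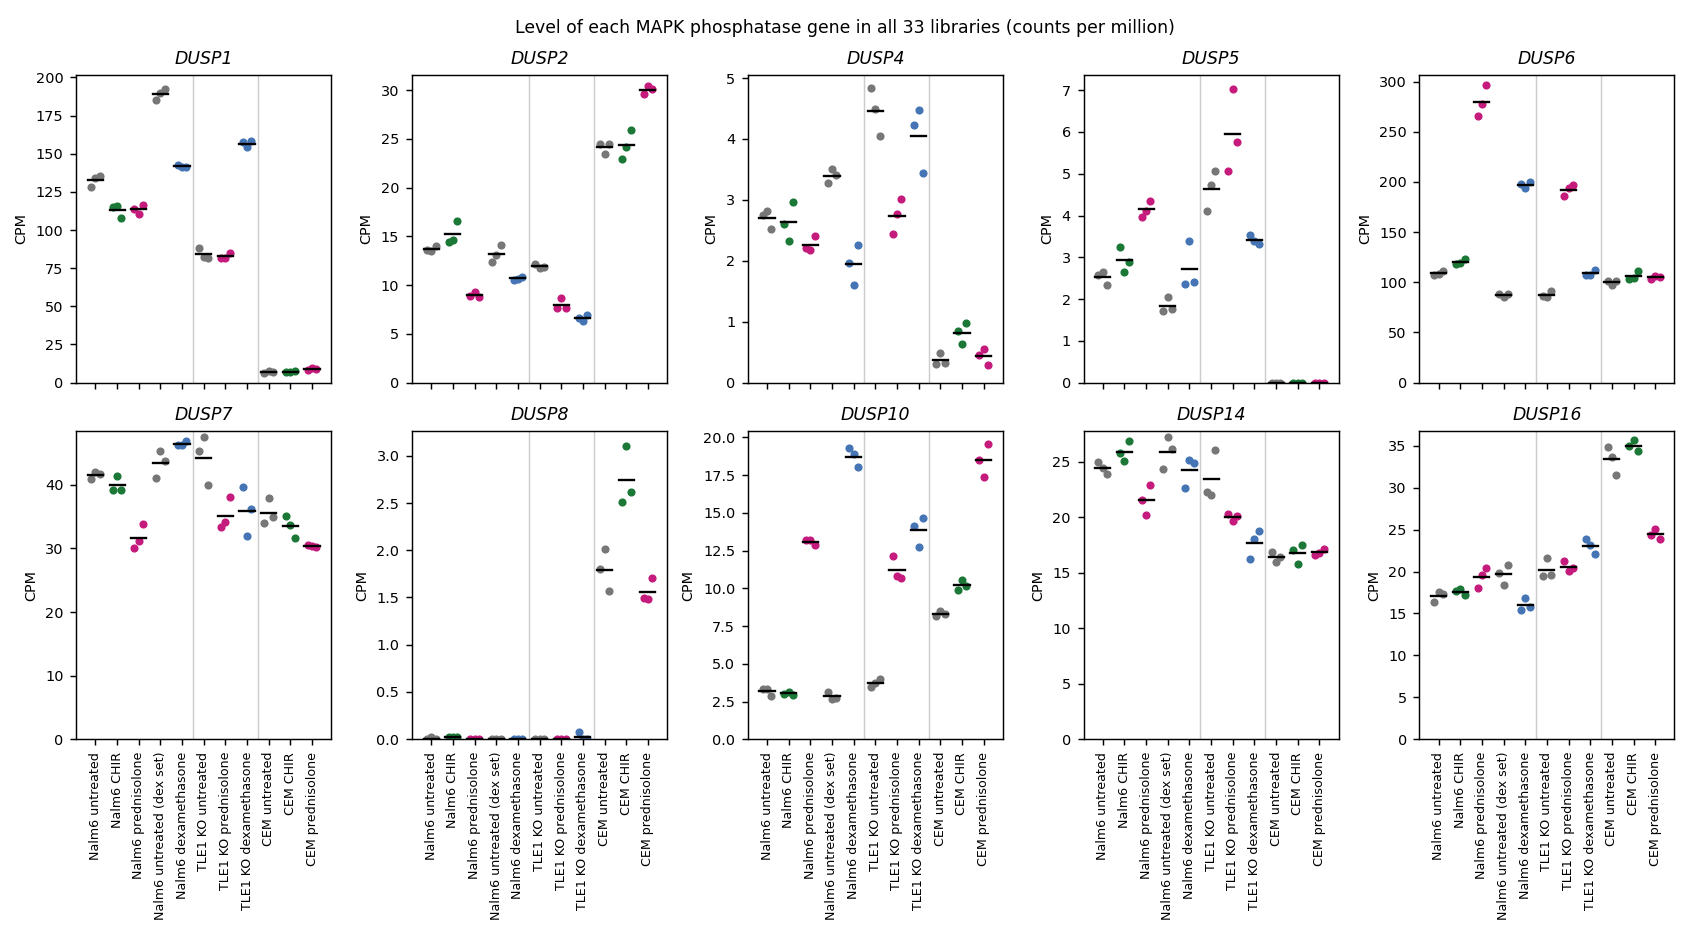
Level of each of the 10 phosphatase genes in CPM (vertical axes, linear from 0) in every library (points) with the mean of the 3 libraries of a group (bars), for 11 groups of Nalm6, TLE1 KO and CEM cells; grey points are untreated, green CHIR-99021, magenta prednisolone and blue dexamethasone. DUSP10 was higher in every glucocorticoid group than in any untreated group of the same line, DUSP1 was below 10 CPM in all CEM libraries, and DUSP5 was at 0 there.

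Across the 11 groups the widest ranges belonged to genes that differ between the lines. DUSP1 group means ran from 6.98 CPM in untreated CEM to 189 CPM in the untreated dexamethasone set of Nalm6, and every CEM library was below every Nalm6 and knockout library. DUSP5 ran from 0 in all 9 CEM libraries to 5.95 CPM in the prednisolone-treated knockout. DUSP7 and DUSP14 were the steadiest, with group means of 30.4 to 46.5 CPM and 16.4 to 25.9 CPM. With the groups ordered by mean, libraries of neighbouring groups overlapped at all 10 steps for DUSP7 and at 4 of 10 steps for DUSP10. DUSP10 fell into a low block (untreated and CHIR-99021-treated Nalm6 and the untreated knockout, 2.84 to 3.73 CPM), a middle block (untreated and CHIR-99021-treated CEM, 8.31 to 10.2 CPM) and a high block of all 5 glucocorticoid groups (11.2 to 18.7 CPM), with no overlap between blocks. DUSP6 libraries of 7 groups lay between 84.8 and 112 CPM, and those above were CHIR-99021-treated Nalm6 (120 CPM), then prednisolone-treated knockout and dexamethasone-treated Nalm6 (192 and 197 CPM, overlapping) and prednisolone-treated Nalm6 (280 CPM).

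The untreated Nalm6 groups, which carry the same label of no treatment, were compared first because they stand for the same cells. They differed in 7 of 9 members tested (5 higher and 2 lower in the dexamethasone set) on a background of 50.2% of genes called (25.8% higher and 24.4% lower). DUSP1 was at 185, 190 and 193 CPM in the dexamethasone set and at 128, 134 and 135 CPM in the other. The sets did not overlap for DUSP1, with a log2 difference of 0.57 ± 0.04 (SE; edgeR adjusted p = 2.03e-07). DUSP6 differed the other way, by -0.26 (edgeR adjusted p = 1.14e-04), whereas DUSP10 and DUSP2 were not called (-0.08 and 0.00). DUSP4 (0.39) and DUSP16 (0.27) were higher in the dexamethasone set. The calls of DUSP5 (-0.39), DUSP7 (0.12) and DUSP14 (0.14) did not hold in 4, 5 and 5 of the 6 leave-one-out fits (edgeR adjusted p up to 0.0696, 0.142 and 0.125). In DUSP5 these were untreated replicates 1 and 2 and dexamethasone-set replicates 1 and 3, and in DUSP7 and DUSP14 all untreated replicates and dexamethasone-set replicates 2 and 3. Dexamethasone was read against the set named for it. No label ties the Nalm6 prednisolone libraries to either untreated set. They were read against the other one, which is an assumption. For prednisolone in Nalm6 the values of the members tested are also given with the dexamethasone-set controls. For the tests of its difference between lines, the members called with those controls are given. This alternative was added after the data were seen. Log2 fold changes of other genes that depend on the assumption are given with the assumed control only.

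Both glucocorticoids shifted the family in Nalm6 toward DUSP10 and DUSP6 and away from DUSP1 and DUSP2. Prednisolone changed 8 of the 9 members tested (4 higher and 4 lower) where 54.8% of all genes were called (28.7% higher and 26.1% lower). Dexamethasone changed 7 of 9 (3 higher and 4 lower) where 60.5% of all genes were called (30.2% in each direction). The median log2 fold change of the members was -0.21 and -0.13, beside 0.03 and 0.02 over all genes tested. With these separate controls, 6 members were called in both (6 of 8 and 6 of 7), 5 of them in the same direction; over all genes tested in both, 48.6% were called in both, and 99.1% of those had the same direction. DUSP8 was not tested in Nalm6 because its counts were too low. With the dexamethasone-set controls, prednisolone again gave 8 of 9, with DUSP4 called in place of DUSP16 and 64.3% of all genes called. DUSP6 was then 1.57, DUSP10 2.08 and DUSP5 1.07, while DUSP1 was -0.85, DUSP2 -0.67, DUSP7 -0.56 and DUSP14 -0.38.

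Among the nuclear phosphatases, DUSP1 did not rise under either glucocorticoid against the controls used. It stood at 114, 110 and 117 CPM under prednisolone against 128, 134 and 135 CPM untreated, and at 143, 142 and 141 CPM under dexamethasone against 185, 190 and 193 CPM in its own controls. All treated libraries lay below all their controls in both sets. The falls were 0.25 and 0.45 on the log2 scale, written as log2 fold changes of -0.25 ± 0.04 (edgeR adjusted p = 3.64e-05) and -0.45 ± 0.04 (edgeR adjusted p = 6.8e-08). The untreated sets themselves differed by 0.57 in DUSP1, more than either fall. All dexamethasone libraries lay above all libraries of the other untreated set, so the fall under dexamethasone holds only against its own controls. DUSP2, which dephosphorylates ERK and p38 in activated lymphocytes, went from 13.6, 13.5 and 14 CPM to 8.86, 9.32 and 8.80 CPM under prednisolone, a fall of 35.6% without overlap (-0.63 ± 0.06, edgeR adjusted p = 1.3e-07). Under dexamethasone DUSP2 fell by 20.8%, or -0.34 on the log2 scale (edgeR adjusted p = 6.61e-04).

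DUSP4 and DUSP5, the remaining nuclear members, went in opposite directions at low levels. DUSP4 fell under dexamethasone from 3.28, 3.51 and 3.40 CPM to 1.97, 1.60 and 2.25 CPM, with no overlap (-0.84 ± 0.14, edgeR adjusted p = 9.23e-05). Under prednisolone its value was -0.27 and not called (edgeR adjusted p = 0.0756), although the groups did not overlap; with the dexamethasone-set controls it was -0.69 (edgeR adjusted p = 1.93e-04), and without prednisolone replicate 3 it was -0.36 and called (edgeR adjusted p = 0.0347). DUSP5, which binds ERK in the nucleus and is induced by it, rose from 2.57, 2.65 and 2.33 CPM to 3.97, 4.12 and 4.35 CPM under prednisolone (0.70 ± 0.11, edgeR adjusted p = 3.66e-05). Its rise under dexamethasone, from 1.72, 2.06 and 1.76 to 2.36, 3.40 and 2.40 CPM (0.53 ± 0.16, edgeR adjusted p = 0.0126), leaned on replicate 2 of the treated group. Without that library it was 0.34 and not called (edgeR adjusted p = 0.0783), nor was it called by DESeq2 (0.51, adjusted p = 0.0506).

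The cytoplasmic ERK phosphatase DUSP6, a classic transcriptional readout of ERK activity, showed the largest gain in absolute level. It stood at 107, 108 and 112 CPM untreated and at 266, 278 and 296 CPM under prednisolone. All treated libraries were more than 2 times any control, with a fold of 2.52 (log2 fold change 1.33 ± 0.04, edgeR adjusted p = 1.08e-13). Dexamethasone took DUSP6 from 88.3, 85.5 and 88.1 CPM to 198, 194 and 200 CPM, a fold of 2.20 (1.14 ± 0.04, edgeR adjusted p = 8.65e-12). Its close relative DUSP7, which also docks ERK in the cytoplasm, did not follow. DUSP7 fell from 40.9, 42.0 and 41.8 CPM to 30.1, 31.1 and 33.9 CPM under prednisolone (-0.41 ± 0.05, edgeR adjusted p = 2.17e-06). Under dexamethasone it was at 41.0, 45.3 and 43.7 CPM in controls and 46.2, 46.3 and 46.9 CPM in treated cells; the log2 difference of 0.07 was not called (edgeR adjusted p = 0.228).

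DUSP10, which acts on p38 and JNK and restrains their signalling in lymphocytes, had the largest fold change of the family. Prednisolone took it from 3.31, 3.31 and 2.89 CPM to 13.2, 13.2 and 12.8 CPM, a fold of 4.04 (log2 fold change 2.02 ± 0.08, edgeR adjusted p = 1.11e-12). Dexamethasone took it from 3.10, 2.65 and 2.77 CPM to 19.3, 18.9 and 18.0 CPM, a fold of 6.38 (2.67 ± 0.08, edgeR adjusted p = 2.91e-12). Treated and untreated libraries were far apart in both sets. DUSP16, the other JNK-directed member with a measurable level, stood lower under dexamethasone. It fell from 19.9, 18.4 and 20.8 to 15.4, 16.9 and 15.8 CPM (-0.34 ± 0.06, edgeR adjusted p = 4.04e-04). Under prednisolone its log2 fold change of 0.16 (edgeR adjusted p = 0.0263) was lost without any 1 of the untreated replicates or prednisolone replicate 3 (0.09 to 0.17, edgeR adjusted p 0.0533 to 0.23), with RLE size factors (0.14, edgeR adjusted p = 0.0576), without a filter, in the unstranded column and in DESeq2. With the dexamethasone-set controls it was -0.14 (edgeR adjusted p = 0.105), so no direction under prednisolone is given for DUSP16. DUSP14 fell by 13.5% under prednisolone, from 24.9, 24.5 and 23.9 to 21.6, 20.2 and 22.9 CPM (-0.21, edgeR adjusted p = 0.00451). Its dexamethasone value of -0.13 was not called (edgeR adjusted p = 0.0746), but it was without untreated replicate 1 (-0.18, edgeR adjusted p = 0.00634).

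**Figure D2:**
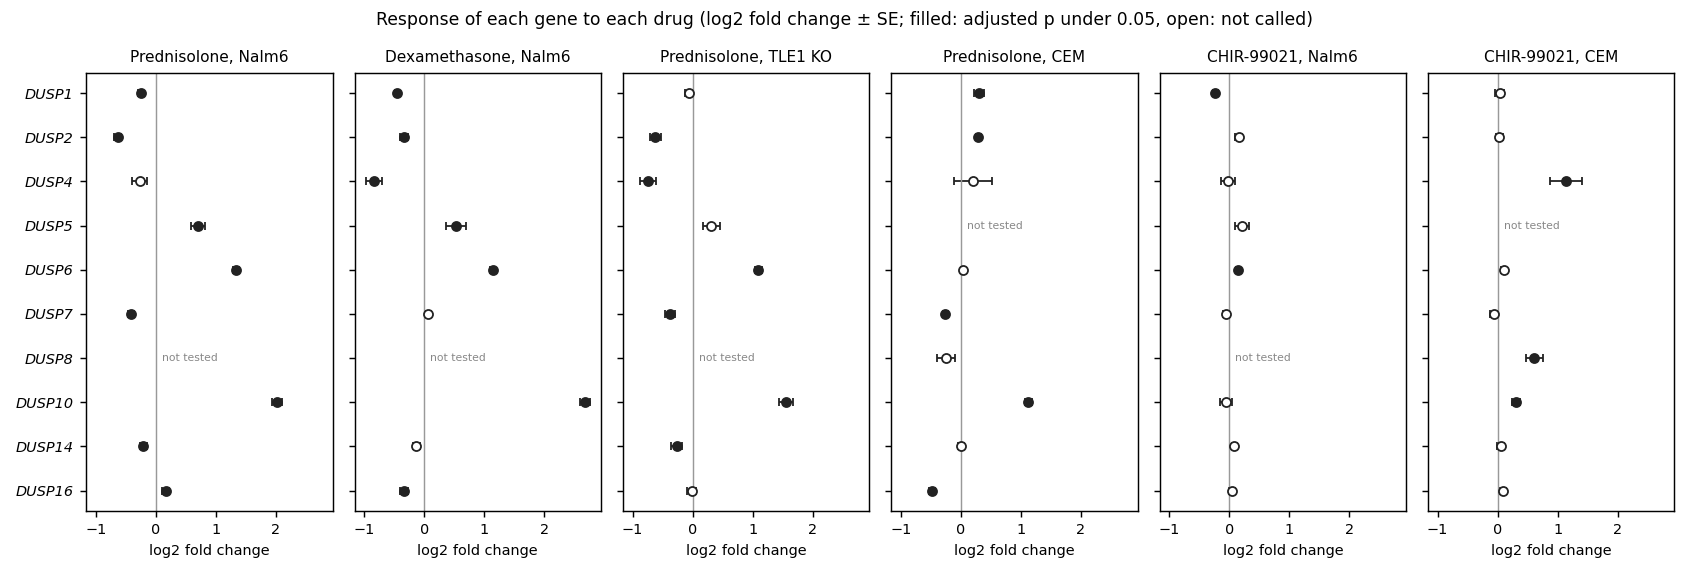
Log2 fold change of each phosphatase gene (horizontal axis, points with SE bars from edgeR) under prednisolone in Nalm6, dexamethasone in Nalm6, prednisolone in TLE1 KO, prednisolone in CEM, and CHIR-99021 in Nalm6 and CEM; filled points have an adjusted p under 0.05. DUSP10 was to the right of 0 in all 4 glucocorticoid panels (1.12 to 2.67), DUSP6 in the 3 panels of Nalm6 and TLE1 KO (1.09 to 1.33) but at 0.04 in CEM.

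Under prednisolone in Nalm6 the leading members moved in opposite directions and their order changed. The ratio of DUSP6 to DUSP1, each per kb, was 0.359 ± 0.00645 (SD, n = 3) in untreated Nalm6 and 1.07 ± 0.0498 under prednisolone, so that DUSP6 was the most abundant member there (41.6% of the family's summed level, against 38.7% for DUSP1). In the dexamethasone set the ratio went from 0.201 ± 0.00570 to 0.606 ± 0.00969, and DUSP1 remained first at 47.8%. In the knockout it was 0.454 ± 0.0307 untreated, 1.01 ± 0.0215 under prednisolone and 0.303 ± 0.00581 under dexamethasone. No library under prednisolone overlapped its untreated group in this ratio. In CEM the ratio was 6.27 ± 0.487 untreated and 5.21 ± 0.300 under prednisolone.

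**Figure D3:**
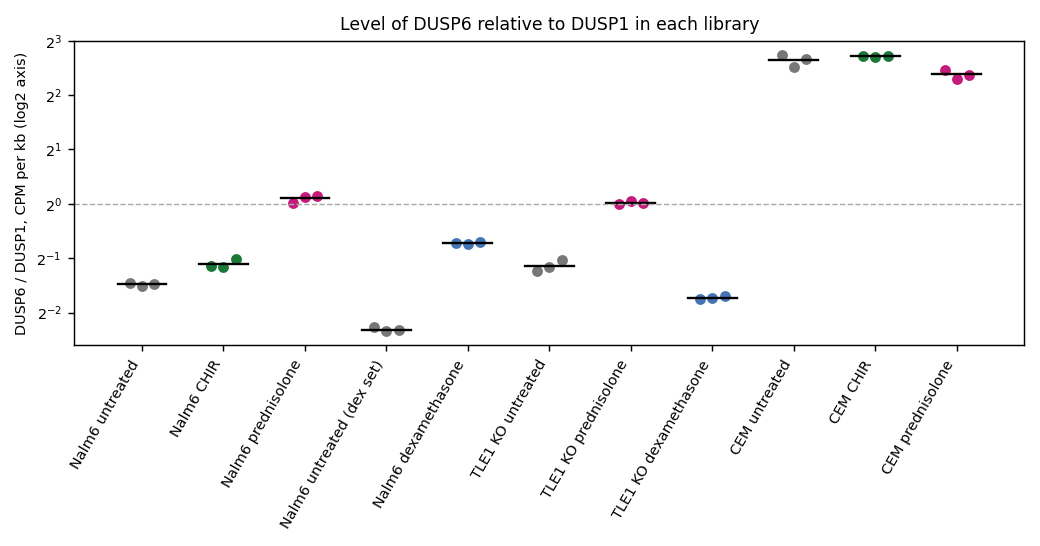
Level of DUSP6 divided by that of DUSP1, both in CPM per kilobase of exon (vertical axis, log2 scale), in each library (points) with group means (bars); the dashed line marks equal levels. The prednisolone libraries of Nalm6 and TLE1 KO sit near the line (means 1.07 and 1.01), their untreated libraries below it (0.359 and 0.454) and all CEM libraries above it (means 5.21 to 6.55).

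TLE1 is a co-repressor that Wnt-pathway and other transcription factors recruit, and the knockout line was compared with parental Nalm6 without treatment. Of 9 members tested, 5 differed (3 higher and 2 lower in the knockout), where 27.1% of all genes were called (15.3% higher and 11.8% lower). The nuclear members split: DUSP1 was lower, at 88.5, 82.3 and 81.7 CPM against 128, 134 and 135 CPM (-0.63 ± 0.05, edgeR adjusted p = 2.47e-05). DUSP4 and DUSP5 were higher. DUSP4 stood at 4.83, 4.496 and 4.04 CPM against 2.75, 2.82 and 2.52 CPM (0.75 ± 0.11, edgeR adjusted p = 8.98e-04), and DUSP5 at 4.10, 4.74 and 5.07 CPM against 2.57, 2.65 and 2.33 CPM (0.91 ± 0.12, edgeR adjusted p = 4.6e-04). None of these 3 genes overlapped between the lines. DUSP6 was lower in the knockout, at 86.6, 84.8 and 91.3 CPM (-0.29, edgeR adjusted p = 0.00224). DUSP16 was also higher (0.27, edgeR adjusted p = 0.0149), but not without any 1 of the parental replicates (edgeR adjusted p 0.0525 to 0.0784). DUSP7 was not called (0.12, edgeR adjusted p = 0.225) unless knockout replicate 3 was left out (0.18, edgeR adjusted p = 0.0117). The parental untreated sets differed from each other by similar sizes in DUSP1 (0.57), DUSP6 (-0.26) and DUSP16 (0.27), and by smaller ones in DUSP4 (0.39) and DUSP5 (-0.39).

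Prednisolone in the knockout changed 6 of 9 members (2 higher and 4 lower), where 41.7% of all genes were called (19.8% higher and 21.9% lower). The 2 that rose were again DUSP6 and DUSP10. DUSP6 stood at 186, 194 and 197 CPM against 86.6, 84.8 and 91.3 CPM (1.09 ± 0.06, edgeR adjusted p = 4.43e-07), and DUSP10 at 12.1, 10.8 and 10.7 CPM against 3.48, 3.70 and 4.01 CPM (1.55 ± 0.12, edgeR adjusted p = 3.16e-06). Treated and untreated libraries of both genes were fully separate. DUSP2 (-0.62), DUSP4 (-0.74), DUSP7 (-0.37) and DUSP14 (-0.26) fell. DUSP1 was at 81.5, 81.5 and 85.3 CPM and overlapped its controls (-0.07, edgeR adjusted p = 0.392). The DUSP14 call was lost without untreated replicate 3 or any 1 prednisolone replicate (-0.29 to -0.18, edgeR adjusted p 0.0551 to 0.112), in the unstranded column and with a replicate block (-0.26, edgeR adjusted p = 0.0643).

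Whether the prednisolone response differed between knockout and parental cells was tested as an interaction. None of 9 members was called by edgeR, nor by DESeq2, where 3.48% of all genes were (1.1% higher and 2.38% lower); 4 members had an unadjusted edgeR p under 0.05. DUSP10 was the nearest, with a response smaller by 0.44 ± 0.14 on the log2 scale in the knockout (edgeR difference -0.44, adjusted p = 0.0968), and without knockout prednisolone replicate 1 it was called (-0.52, edgeR adjusted p = 0.0439). DUSP6 had a difference of -0.22 ± 0.08 (edgeR adjusted p = 0.168), DUSP1 of 0.21 ± 0.08 (edgeR adjusted p = 0.156) and DUSP4 of -0.45 ± 0.17 (edgeR adjusted p = 0.182). These 3 and DUSP10 were the members with the low unadjusted p. The outcome depends on the parental control: with the dexamethasone-set controls 4 members were called, where 24.6% of all genes were, namely DUSP1 (0.80, edgeR adjusted p = 2.88e-06), DUSP6 (-0.46, edgeR adjusted p = 8.55e-04), DUSP10 (-0.51, edgeR adjusted p = 0.0172) and DUSP5 (-0.74, edgeR adjusted p = 0.012).

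Under dexamethasone the lines differed in every member tested. The treated knockout libraries had 6.97 to 7.55% multimapping reads against 4.83 to 5.87% in all other libraries, and the part of this in any knockout dexamethasone result was not tested. Knockout against parental cells gave 9 of 9 called (4 higher and 5 lower), where 56.6% of all genes were called (28.5% higher and 28.1% lower). DUSP6 was at 108, 107 and 112 CPM in the treated knockout against 198, 194 and 200 CPM in treated Nalm6, a log2 difference of -0.85 ± 0.03 (edgeR adjusted p = 6.93e-15). DUSP10 was at 14.1, 12.8 and 14.7 CPM against 19.3, 18.9 and 18.0 CPM (-0.42 ± 0.06, edgeR adjusted p = 5.62e-06). Both genes were lower in the knockout without overlap, as were DUSP2 (-0.68), DUSP7 (-0.36) and DUSP14 (-0.44). DUSP4 (1.06), DUSP16 (0.54) and DUSP1 (0.16) were higher. DUSP5 was at 3.53, 3.40 and 3.31 CPM against 2.36, 3.40 and 2.40 CPM, overlapping (0.34, edgeR adjusted p = 0.0488), and it passed in only 1 of 6 leave-one-out fits, the one omitting parental replicate 2; in the other 5 it did not (edgeR adjusted p 0.0745 to 0.189), and in DESeq2 (adjusted p = 0.185).

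The size of the line difference was set against that without treatment in a comparison added after the data were seen. It changed in 8 of 9 members (2 up and 6 down), where 30.3% of all genes were called (13.7% higher and 16.6% lower). DUSP1 went from lower to higher in the knockout, a shift of 0.78 ± 0.06 (edgeR adjusted p = 3.39e-08), and DUSP6 from slightly lower to much lower, a shift of -0.56 ± 0.06 (edgeR adjusted p = 4.75e-06). DUSP10 shifted by -0.69 ± 0.12 (edgeR adjusted p = 4.35e-04), DUSP2 by -0.51, DUSP7 by -0.48 and DUSP14 by -0.41. The calls of DUSP5 (-0.57, edgeR adjusted p = 0.035) and DUSP16 (0.26, edgeR adjusted p = 0.0271) did not hold in 8 and 4 of the 12 leave-one-out fits (edgeR adjusted p up to 0.11 and 0.0637). For DUSP5 the libraries were parental untreated replicates 1 and 3, knockout untreated replicates 2 and 3, all knockout dexamethasone replicates and parental dexamethasone replicate 2, and for DUSP16 parental untreated replicates 2 and 3 and replicate 1 of either dexamethasone group. The treated and untreated groups here come from different sets, and set and treatment cannot be told apart in this comparison.

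The knockout's own dexamethasone response can be estimated only by subtracting the difference between the untreated parental sets from the difference between its treated and untreated libraries. On that assumption 7 of 9 members changed (3 higher and 4 lower), where 40% of all genes were called (18.5% higher and 21.5% lower). DUSP10 was higher by 1.99 ± 0.15 (edgeR adjusted p = 4.63e-08) and DUSP6 by 0.59 ± 0.06 (edgeR adjusted p = 2.82e-06). DUSP1 was higher by 0.33 ± 0.06 (edgeR adjusted p = 3.8e-04), while its other glucocorticoid responses in the Nalm6 lines were -0.45 to -0.07 against the controls used. The parental prednisolone response was -0.85 with the dexamethasone-set controls. Its raw levels were 158, 154 and 158 CPM in the treated knockout and 88.5, 82.3 and 81.7 CPM in the untreated one. DUSP2 (-0.84), DUSP14 (-0.54), DUSP4 (-0.52) and DUSP7 (-0.41) were lower, and DUSP5 (-0.04) and DUSP16 (-0.07) were not called.

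CEM cells carried a different set of phosphatases before any treatment. Nalm6 was kept in charcoal-stripped serum and the medium of CEM is not given, so line and any difference in medium cannot be told apart. All 10 members differed from untreated Nalm6 of the dexamethasone set (5 higher and 5 lower), where 77.5% of all genes were called (40.2% higher and 37.3% lower), so that a difference was the rule. DUSP1 was at 6.61, 7.39 and 6.95 CPM in CEM against 185, 190 and 193 CPM, 27.8-fold lower (-4.80 ± 0.05, edgeR adjusted p = 4.1e-16). DUSP5 had no count in any CEM library and was at least 25.2-fold lower, computed against 3 counts per library. DUSP4 was 9.23-fold lower, at 0.303, 0.483 and 0.325 CPM (-3.21 ± 0.18, edgeR adjusted p = 2.01e-09). These 3 nuclear members were thus all lower in CEM, while DUSP2, the fourth, was higher at 24.5, 23.4 and 24.4 CPM (0.83 ± 0.06, edgeR adjusted p = 4.71e-08). Of the stress-kinase phosphatases, DUSP8 was at 1.80, 2.02 and 1.57 CPM and at least 22.0-fold higher, DUSP10 was at 8.17, 8.49 and 8.28 CPM and 2.83-fold higher (edgeR adjusted p = 9.34e-09) and DUSP16 at 34.9, 33.7 and 31.5 CPM (0.72 ± 0.06, edgeR adjusted p = 1.86e-07). All 3 were higher in CEM. DUSP7 (-0.32) and DUSP14 (-0.70) were lower. DUSP6, at 102, 97.4 and 101 CPM, was higher by 0.16 (edgeR adjusted p = 0.00302) against this Nalm6 set and lower against the other (-0.07, edgeR adjusted p = 0.038). DUSP5 and DUSP8 have pseudogene copies, DUSP5P1 and DUSP8P5, with up to 169 and 298 counts in a library. Reads that fit a gene and its copy equally well are multimapping and counted for neither, so the levels of these genes may be too low.

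Prednisolone in CEM changed 5 of 9 members (3 higher and 2 lower), where 45.1% of all genes were called (22.3% higher and 22.8% lower). DUSP10 rose again, from 8.17, 8.49 and 8.28 CPM to 18.5, 17.4 and 19.6 CPM, a fold of 2.18 (1.12 ± 0.06, edgeR adjusted p = 1.41e-10). The nuclear members DUSP1 and DUSP2 rose as well: DUSP1 to 8.11, 9.37 and 8.92 CPM (0.30 ± 0.08, edgeR adjusted p = 0.00552), and DUSP2 to 29.6, 30.4 and 30.1 CPM (0.29 ± 0.04, edgeR adjusted p = 3.21e-05). Neither overlapped its controls. DUSP6 was at 103, 106 and 106 CPM, 0.04 ± 0.03 above the controls on the log2 scale (not called, edgeR adjusted p = 0.383), without overlap. DUSP16 fell from 34.9, 33.7 and 31.5 to 24.4, 25.03 and 23.9 CPM (-0.48 ± 0.05, edgeR adjusted p = 2.3e-07) and DUSP7 fell from 34.0, 38.0 and 34.9 to 30.6, 30.3 and 30.3 CPM (-0.26 ± 0.05, edgeR adjusted p = 1.81e-04). DUSP14 (0.01), DUSP8 (-0.25) and DUSP4 (0.20) were not called.

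The prednisolone response of CEM was tested against that of Nalm6 as an interaction. The doses were 10 and 5 µM and the medium of CEM is not given, so line, dose and any difference in medium cannot be told apart. DUSP5, at 0 in CEM, and DUSP8, near 0 in Nalm6, have no response in 1 of the lines and could not be called. Of the 10 members in the fit, 6 differed (3 higher and 3 lower in CEM), where 26.9% of all genes were called (14.7% higher and 12.2% lower). DUSP6 differed most, by -1.29 ± 0.06 (edgeR adjusted p = 2.32e-14): its level in Nalm6 went to 2.52 times the control and in CEM to 1.03 times. DUSP10 responded less in CEM (-0.88 ± 0.10, edgeR adjusted p = 1.53e-07), where its untreated level was already higher, and its treated levels were 18.5 CPM in CEM and 13.1 CPM in Nalm6. DUSP2 differed by 0.93 ± 0.07 (edgeR adjusted p = 2.29e-10) and DUSP1 by 0.56 ± 0.08 (edgeR adjusted p = 1.22e-05), both having fallen in Nalm6 and risen in CEM. DUSP16 differed by -0.63 ± 0.08 (edgeR adjusted p = 1.06e-06). The DUSP14 difference of 0.23 (edgeR adjusted p = 0.0389) did not hold in 9 of 12 leave-one-out fits, that is in all except those omitting Nalm6 untreated replicate 3, CEM untreated replicate 1 or Nalm6 prednisolone replicate 3 (0.16 to 0.23, edgeR adjusted p 0.0592 to 0.13). With the dexamethasone-set controls 8 members differed, those 6 in the same directions with DUSP4 (0.89) and DUSP7 (0.30), where 39.8% of all genes were called; DUSP1 was then 1.15, DUSP14 0.39 and DUSP16 -0.34. With the controls used first, DUSP7 was called only without CEM untreated replicate 2 or Nalm6 prednisolone replicate 3 (0.21 to 0.24, edgeR adjusted p 0.00846 to 0.0384).

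CHIR-99021 changed few members in either line. Its untreated libraries are those of the prednisolone comparisons, and in Nalm6 also those of the untreated knockout comparison, so these results share controls. In Nalm6, at 0.5 µM, 2 of 9 members were called (1 higher and 1 lower), where 7.88% of all genes were (3.16% higher and 4.72% lower). DUSP1 fell to 115, 116 and 108 CPM from 128, 134 and 135 CPM (-0.23 ± 0.04, edgeR adjusted p = 0.0106). Without the outlying replicate 3 of the CHIR-99021 group it was -0.19 (edgeR adjusted p = 0.00141), and without untreated replicate 2 or 3 the call was lost (-0.23 to -0.21, edgeR adjusted p 0.0663 to 0.0761). DUSP6 stood at 118, 119 and 123 CPM against 107, 108 and 112 CPM (0.14 ± 0.04, edgeR adjusted p = 0.047). It passed in only 1 of 6 leave-one-out fits, the one omitting CHIR-99021 replicate 3 (0.13, edgeR adjusted p = 0.0174); in the other 5 the edgeR adjusted p was 0.0691 to 0.212. The call was also absent in DESeq2 (adjusted p = 0.05), without a filter (edgeR adjusted p = 0.0741) and with a replicate block (edgeR adjusted p = 0.0908).

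In CEM, at 2 µM, 3 of 9 members changed, all higher, where 10.8% of all genes were called (5.41% higher and 5.43% lower). DUSP8 went from 1.80, 2.02 and 1.57 CPM to 2.51, 3.10 and 2.62 CPM (0.61 ± 0.14, edgeR adjusted p = 0.0134). DUSP4 went from 0.303, 0.483 and 0.325 CPM to 0.855, 0.635 and 0.974 CPM (1.14 ± 0.27, edgeR adjusted p = 0.0167), and DUSP10 from 8.17, 8.49 and 8.28 CPM to 9.88, 10.5 and 10.2 CPM (0.31 ± 0.07, edgeR adjusted p = 0.0108). The groups did not overlap for any of them. Each call was lost when either of 2 libraries was left out: untreated replicate 1 or 3 for DUSP4 (0.99 to 1.07, edgeR adjusted p 0.0622 to 0.0778), untreated replicate 3 or CHIR-99021 replicate 2 for DUSP8 (0.52 to 0.54, edgeR adjusted p 0.0537 to 0.065), and untreated replicate 1 or CHIR-99021 replicate 2 for DUSP10 (0.29 to 0.30, edgeR adjusted p 0.051 to 0.0544). DUSP6 was at 103, 104 and 111 CPM and not called (0.10, edgeR adjusted p = 0.132). Doses differ between the lines, and the CHIR-99021 responses were not compared with each other.

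The kinases these phosphatases act on, and the genes that report ERK activity, were followed as lists. Of 9 MAP kinase genes tested, 6 changed under prednisolone in Nalm6 (4 higher and 2 lower, median log2 fold change 0.06) and 5 under dexamethasone (4 higher and 1 lower, median 0.04), which is 66.7% and 55.6% beside 54.8% and 60.5% of all genes. The stress-kinase genes MAPK13 (0.77 and 1.01) and MAPK11 (0.77 and 0.88), both encoding p38 isoforms, rose under both drugs, as did MAPK7 (0.35 and 0.55), which encodes ERK5. Another p38 isoform gene, MAPK12, fell under prednisolone (-0.53). In CEM 6 of 10 changed under prednisolone (3 higher and 3 lower), with MAPK13 at 0.36 and MAPK12 at -0.33, and in the knockout 4 of 9 (2 higher and 2 lower), with MAPK13 at 0.34, beside 45.1% and 41.7% of all genes. Under CHIR-99021 1 of 9 changed in Nalm6, MAPK13 (-0.31), and 2 of 10 in CEM, MAPK11 (-0.28) and MAPK3 (-0.17), all lower, which is 11.1% and 20% beside 7.88% and 10.8% of all genes.

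Of 16 upstream genes tested, from RAS GTPases to MAP2 and MAP3 kinases, 9 changed under prednisolone in Nalm6 (6 higher and 3 lower) and 11 under dexamethasone (9 higher and 2 lower); these shares of 56.25% and 68.75% lie near the 54.8% and 60.5% of all genes. The largest fall was in MAP2K6, the kinase that activates p38, whose mean under prednisolone was 8.10 CPM against 25.3 CPM (-1.70 ± 0.08, edgeR adjusted p = 6.05e-12), with -1.68 under dexamethasone. In the knockout it fell by 0.86 on the log2 scale under prednisolone, a response that differed from the parental one by 0.86 (edgeR adjusted p = 0.00101) with the parental control assumed above. MAP2K6 was 40.3 CPM in untreated and 40.9 CPM in prednisolone-treated CEM. MAP2K1, which activates ERK, rose under prednisolone (0.35) and dexamethasone (0.69) in Nalm6 and under prednisolone in CEM (0.29), and MAP3K5, which acts upstream of p38 and JNK, rose by 0.38 and 1.16 in Nalm6. HRAS fell in Nalm6 under both (-0.30 and -0.36). Under prednisolone 4 of 16 changed in the knockout, all lower, and 6 of 16 in CEM, 4 higher and 2 lower, which is 25% and 37.5% beside 41.7% and 45.1% of all genes.

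ERK-responsive genes did not move as a block with DUSP6. Of 16 tested in Nalm6, 9 changed under prednisolone (4 higher and 5 lower, median -0.01) and 9 under dexamethasone (2 higher and 7 lower, median -0.18), a share of 56.25% each time, near the 54.8% and 60.5% of all genes. FOS rose under prednisolone to 6.73 from 1.18 CPM (2.49 ± 0.12, edgeR adjusted p = 1.53e-11) and under dexamethasone by 2.10, and SPRY4, an inhibitor of RAS signalling, rose by 1.42 and 1.20. MYC (-1.005 and -1.08) and ETV5, an ETS-family factor commonly read beside DUSP6 as an ERK output (-0.40 and -0.63), fell under both. PHLDA1 fell under dexamethasone (-1.53) against its own controls only. It was at 6.10 CPM under dexamethasone, 17.3 CPM in those controls and 6.29 CPM in the other untreated set. In the knockout 8 of 14 changed under prednisolone (2 higher and 6 lower), with FOS up (1.25) and MYC down (-0.75). In CEM, where DUSP6 was not called, 8 of 13 changed (4 higher and 4 lower), among them SPRY4 (1.80), FOS (1.15) and EGR1 (0.82) up, and ETV5 (-1.10), MYC (-0.81) and IER3 (-0.50) down. These are 57.1% of the list in the knockout and 61.5% in CEM, beside 41.7% and 45.1% of all genes. The prednisolone responses of FOS (-1.22), SPRY4 (-1.25) and EGR1 (-1.19) were lower in the knockout than in parental cells by the interaction test (edgeR adjusted p = 0.00624, 0.0403 and 0.0129). This test used the parental control assumed above, and these genes were not tested with the dexamethasone-set controls. The direction of the parental EGR1 response depends on that choice. EGR1 was at 2.851 CPM in prednisolone-treated Nalm6, 1.981 CPM in the assumed controls and 4.499 CPM in the dexamethasone-set controls. FOS and SPRY4 under prednisolone stood above both untreated Nalm6 sets.

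**Figure D4:**
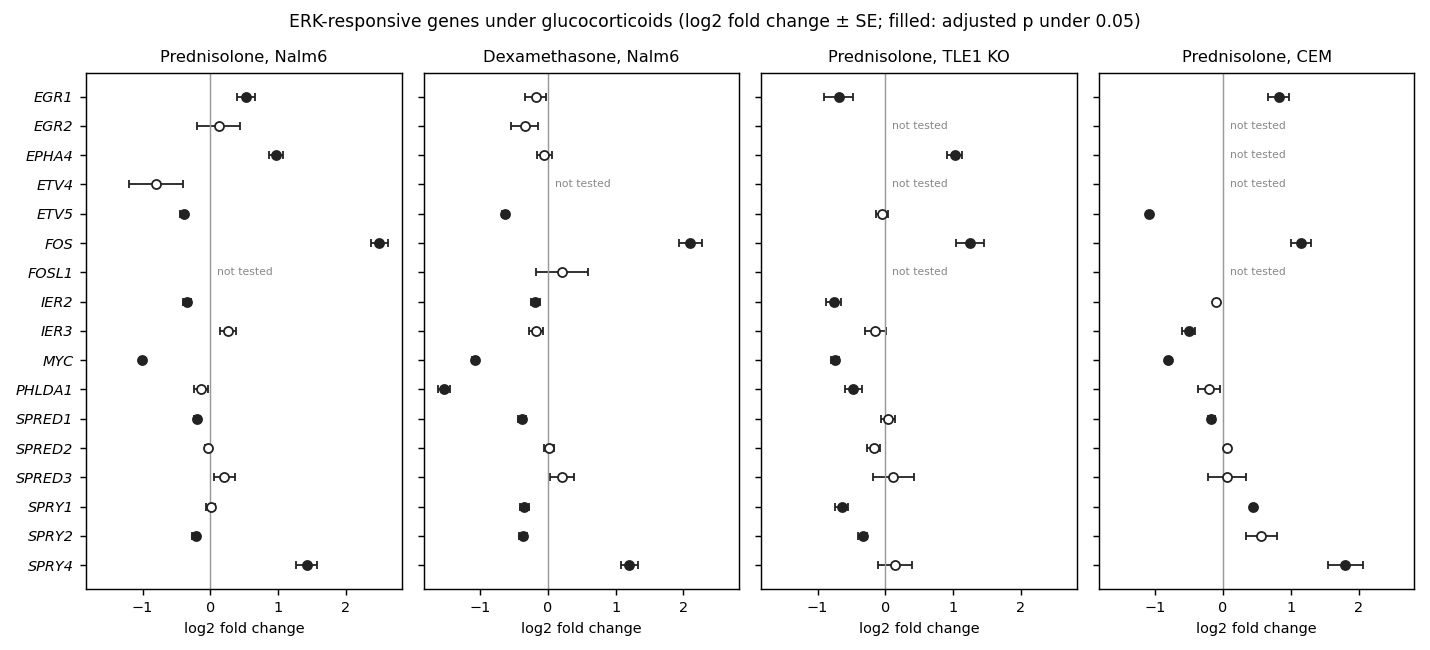
Log2 fold change of ERK-responsive genes and feedback inhibitors (horizontal axis, points with SE bars from edgeR) under prednisolone and dexamethasone in Nalm6, prednisolone in TLE1 KO and prednisolone in CEM; filled points have an adjusted p under 0.05. FOS was to the right of 0 in all 4 panels (1.15 to 2.49) and MYC to the left in all 4 (-1.08 to -0.75).

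Other dual-specificity phosphatase genes, most of which are not classed as MAPK phosphatases, were counted the same way. Of 10 tested in Nalm6, 6 changed under prednisolone (4 higher and 2 lower) and 8 under dexamethasone (5 higher and 3 lower), beside 54.8% and 60.5% of all genes. The median absolute log2 fold change was 0.20 and 0.22, against 0.41 and 0.45 for the 9 MAPK phosphatases tested and 0.28 and 0.32 for all genes; these differences between lists were not tested. DUSP18 (0.48 and 0.50) and DUSP19 (0.47 and 0.50) rose most, and DUSP12 fell (-0.26 and -0.46). DUSP3, a small phosphatase that can act on ERK and JNK, fell under prednisolone in Nalm6 (-0.24), the knockout (-0.38) and CEM (-0.35). As a check of the treatment, the glucocorticoid-responsive genes rose in 5 of 5 tested in Nalm6 under either drug. Under prednisolone they rose in 5 of 5 in the knockout and in 4 of 4 in CEM. Over all genes the shares called higher were 28.7% and 30.2% in Nalm6, 19.8% in the knockout and 22.3% in CEM. TSC22D3 rose by 3.99 and 5.23 in Nalm6, 4.37 in the knockout and 5.96 in CEM. Under dexamethasone all 5 were lower in the knockout than in Nalm6 (median -1.20), where 28.1% of all genes were. From untreated to dexamethasone this line difference shifted down in 3 of 5 (median -0.66), beside 16.6% of all genes. With the set difference removed, 5 of 5 rose under dexamethasone in the knockout (median 1.31), beside 18.5% of all genes.

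The genes most like a member over the 33 libraries were listed for the 3 members with the widest range of group means, by Pearson r of log2 CPM among 12700 genes. For DUSP5 they were SMOC2, IGHJ6 and CACNA2D3 (r = 0.996 each, Spearman rho 0.908 to 0.936). For DUSP8 they were PCSK5 (r = 0.996), C14orf39 (0.996) and NECTIN3 (0.995), with rho from 0.846 to 0.927. For DUSP1 they were CALML6, PGBD5 and UIMC1 (r = 0.991 each, rho 0.890 to 0.959). DUSP10 and DUSP6 were added after their values were seen. For DUSP10, the member with the largest glucocorticoid response, they were SLC10A7 (r = 0.976), KLF13 (0.974) and SOCS1 (0.973), with rho from 0.891 to 0.936. For DUSP6 the nearest were less close, ZNF699 (r = 0.916), LOXL4 (0.913) and KDR (0.909), with rho from 0.679 to 0.823. The 33 points share cell line and library, so these values are descriptions.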

How the data were processed

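RNA from 33 libraries (11 groups of 3) was sequenced; the deposited files hold whole-number read counts per gene from the authors' own alignment, in the layout that STAR writes with 3 count columns. The submitters' processing notes name Bowtie2, DESeq2 and hg19 without role or order; aligner settings and annotation are not given in the sources used here. The second stranded count column was used, since it exceeded the first by 12.3 to 15.3 times. Symbols came from a table of Ensembl gene IDs (58652 of 62446 matched), and GENCODE v29 exon lengths gave levels per kilobase; promoters are RefSeq GRCh38.p14. Per library, the 4 summary lines were left out: 2.84 to 11.2% of reads were unmapped, 4.83 to 7.55% multimapping, 18.4 to 32.7% without a feature and 4.70 to 7.45% ambiguous. CPM used gene counts only.

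Each comparison was fitted on all genes of its own groups with edgeR 4.0.16 (R 4.3.3, limma 3.58.1): filterByExpr, TMM, quasi-likelihood test, Benjamini-Hochberg over all genes tested, called at an adjusted p under 0.05. The SE is the log2 fold change divided by the root of the F statistic. Alternatives were RLE factors, no filter, the unstranded column, a replicate block, DESeq2 1.42.0, all 33 libraries in 1 fit, the other untreated Nalm6 set (for CEM and, added after the data were seen, for prednisolone) and leaving out each library. The code was tested on simulated data. Numbers were not taken as pairing, since no comparison had a correlation of deviations over 0.1 in all 3 same-numbered pairs; for prednisolone in Nalm6 they were 0.040, 0.142 and 0.0999, and for the untreated sets 0.170, 0.0224 and 0.112. Of each pathway list, at most 3 genes called higher and 3 called lower were named, by size, and 1 listed gene is not reported here; XIST and Y-linked genes were left out of the search for like genes. The members and lists were chosen with earlier results of these data known, so they are not independent evidence.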

Additional observations from a re-analysis of the deposited data

Results flagged for a closer look

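The prednisolone response differed between CEM (10 µM) and Nalm6 (5 µM) by the edgeR interaction test in 6 of 10 members, where 26.9% of all genes were called. The log2 difference, CEM minus Nalm6, was 0.56 for DUSP1, 0.93 for DUSP2, -1.29 for DUSP6, -0.88 for DUSP10, 0.23 for DUSP14 and -0.63 for DUSP16. The DUSP14 call did not hold in 9 of 12 leave-one-out fits or in DESeq2. Line, dose and any difference in medium cannot be told apart in this comparison.

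In a comparison chosen after the data were seen, the difference between knockout and parental cells was not the same under dexamethasone as without treatment in 8 of 9 members, where 30.3% of all genes were called. The log2 shift, dexamethasone minus untreated, was 0.78 for DUSP1, -0.51 for DUSP2, -0.57 for DUSP5, -0.56 for DUSP6, -0.48 for DUSP7, -0.69 for DUSP10, -0.41 for DUSP14 and 0.26 for DUSP16. The calls of DUSP5 and DUSP16 did not hold in 8 and 4 of 12 leave-one-out fits. The untreated Nalm6 sets themselves differed in 7 of 9 members, where 50.2% of all genes were called, and the set cannot be told apart from the treatment.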

How the results depend on the processing

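Most values for single genes kept their direction and side of the threshold: 127 of 128 with RLE size factors, 124 of 128 in the unstranded column, 122 of 128 without a filter, 126 of 128 with a replicate block, 117 of 128 with all 33 libraries in 1 fit, 117 of 127 in DESeq2 and 897 of 990 leave-one-out values. For CHIR-99021 in Nalm6 the members called were 1, not 2, without a filter, with the replicate block, in DESeq2 and with all 33 libraries, and 0 to 2 when a library was left out. For the prednisolone response of the knockout minus that of the parental line, all 33 libraries gave 3 (DUSP1, DUSP6 and DUSP10) in place of 0, and leaving out a library 0 to 1. CHIR-99021 in CEM gave 1 to 3 without 1 library. The untreated Nalm6 sets gave 4 in DESeq2 in place of 7, and 4 to 6 without 1 library. DUSP6 between CEM and Nalm6 was -0.074 with the other untreated Nalm6 set in place of 0.16. With the dexamethasone-set controls for prednisolone in Nalm6, an alternative added after the data were seen, 17 of 28 single-gene values were the same. DUSP16 was then -0.14 in place of 0.16. The knockout minus parental count was 4 in place of 0, where 24.6% in place of 3.48% of all genes were called. For the other alternative fits the share of all genes called is not given here, so their member counts cannot be set against it. The causes were not tested. The replicate block otherwise lost DUSP14 under prednisolone in the knockout and changed no other call. Every Nalm6 prednisolone library correlated best with the untreated library of its own number. Every untreated library of the dexamethasone set did so with its own number in the other untreated set. The reverse direction was not checked, and these matches are a hint from the data only. Depth limits DUSP8 in Nalm6 and DUSP5 in CEM, which were at or under 3 counts.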
